A study of Mus musculus with 8 samples.

Results

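The genes described here encode the receptors that carry newly made lysosomal proteins out of the Golgi (Sort1, Igf2r and M6pr), the GGA adaptors that load those receptors into transport carriers (Gga1, Gga2 and Gga3), and the subunits of the enzyme that makes the mannose-6-phosphate tag (Gnptab and Gnptg). They were chosen by name and function, and each matched 1 gene of GENCODE release M21, giving 8 of the 55450 genes in the deposited table. The rule names genes and no cut-off, but the group was proposed with the difference between the lines already known. The values and p-values of that difference therefore describe these libraries and are no independent evidence about the group. The cells were RAW264.7, a macrophage-like line from mouse, and total RNA was sequenced. One line, shNS, carried the non-silencing control shRNA, and the other, shDis3l2, carried an shRNA targeting Dis3l2, an exoribonuclease that degrades uridylated RNA. After 4 days of doxycycline at 1 µg/mL, the usual inducer of such hairpins, there were 3 libraries of each line, and without it 1 library of each line. The labels do not say whether a line is a single clone, or whether replicates were separate cultures, so p-values rest on the spread between libraries, which may be technical.

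Most soluble lysosomal enzymes receive mannose-6-phosphate on their sugar chains in the Golgi. The cation-independent receptor (Igf2r) and the cation-dependent receptor (M6pr) bind the tag, hand the enzyme over in the acidic endosome and return to the Golgi with the help of retromer. Sortilin (Sort1) carries a different set of cargo, such as prosaposin and progranulin, without needing the tag. GGA proteins recognise a short acidic dileucine signal in the tails of all 3 receptors. In mice Igf2r is an imprinted gene, and the noncoding RNA Airn is transcribed across its promoter from the opposite strand.

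The libraries held 30341823 to 45557804 counts. Among macrophage markers 11 of 12 exceeded 1 CPM (library-scaled counts, after TMM normalization) in every library. The exception was Aif1, at 0.839 CPM in shDis3l2 without doxycycline. All 14 markers of other cell types stayed at or under 1 CPM in every library. Summed, the macrophage markers ran from 9108 to 13630 CPM in shNS and from 7646 to 10670 CPM in shDis3l2 with doxycycline, and their part in the results below was not tested. The shNS libraries were not alike. Replicate 2 with doxycycline correlated more closely with shNS without doxycycline (r = 0.992, over genes that do not vary independently) than with replicates 1 and 3 (0.961 and 0.964). Dis3l2 stood at 33.0, 28.6 and 22.0 CPM in shNS with doxycycline and at 12.0, 13.5 and 14.9 CPM in shDis3l2. Without doxycycline it was at 29.6 and 28.6 CPM, so the lower level in shDis3l2 was seen with doxycycline and not in the untreated library.

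Promoter sequence from RefSeq (GRCm38.p6) is shown for Igf2r and Gga2, which were both lower in shDis3l2, and for Gga1, an adaptor whose groups overlapped. Sort1 and M6pr had no entry in the promoter set used, so the motif counts below leave them out. Each stretch ends at the base before the transcription start, taken as the more upstream of the RefSeq and GENCODE starts, and runs 5′ to 3′ on the strand of the gene. Capitals mark the E-box CACGTG, the letters at the core of the element bound by the lysosomal regulators TFEB and TFE3, and the GC box GGGCGG or its reverse complement CCGCCC, the type of site bound by Sp1. Both strands were searched, and no E-box overlapped a GC box.
Igf2r, chr17:12769707-12769956, minus strand: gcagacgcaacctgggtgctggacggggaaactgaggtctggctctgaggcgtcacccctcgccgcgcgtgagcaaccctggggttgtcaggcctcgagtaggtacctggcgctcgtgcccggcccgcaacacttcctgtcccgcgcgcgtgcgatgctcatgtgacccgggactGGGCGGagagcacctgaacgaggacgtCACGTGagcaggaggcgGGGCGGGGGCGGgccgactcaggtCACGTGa
Gga2, chr7:122021223-122021448, minus strand: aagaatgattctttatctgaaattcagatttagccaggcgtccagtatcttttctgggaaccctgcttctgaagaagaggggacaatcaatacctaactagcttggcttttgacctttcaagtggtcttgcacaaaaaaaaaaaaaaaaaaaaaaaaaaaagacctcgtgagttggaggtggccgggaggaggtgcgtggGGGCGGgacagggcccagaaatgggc
Gga1, chr15:78876940-78877189, plus strand: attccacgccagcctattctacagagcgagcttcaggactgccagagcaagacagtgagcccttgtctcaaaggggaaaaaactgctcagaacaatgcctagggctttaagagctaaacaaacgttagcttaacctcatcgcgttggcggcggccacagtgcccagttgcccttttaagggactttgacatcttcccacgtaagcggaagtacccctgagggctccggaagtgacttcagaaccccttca
The Igf2r stretch held 2 E-boxes, 3 GC boxes and 27 CpG dinucleotides in 250 bases. Gga2 held 1 GC box and 5 CpG in 226 bases, with a run of adenines in the middle. Gga1 held neither motif and 10 CpG in 250 bases. In the full RefSeq windows of 250 bases before to 50 after the start, an E-box occurs in 7.15% of 32851 promoters, 2 or more in 0.594%, and a GC box in 35.7%. Over such windows Igf2r had 2 E-boxes, Gga2 and Gnptg had 1 each, and Gga1, Gga3 and Gnptab had 0, so the letters occurred in called and uncalled genes. GC boxes numbered 3 in Igf2r and in Gga3, 2 in Gga2, 1 in Gnptab and in Gnptg and 0 in Gga1. A match is a description of the letters and not evidence of binding.

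Of the 8 genes, Sort1, Igf2r and Gga2 were lower in shDis3l2 with doxycycline and the other 5 did not pass the test. All 8 passed the filter on low counts and were tested among 13752 genes, of which 4.01% were called lower, 2.13% higher and 6.14% in either direction by edgeR's quasi-likelihood test at an adjusted p of 0.05. The 3 called genes were also the 3 whose groups of 3 libraries did not overlap, against 14.6% of all tested genes that lay lower without overlap. Without shNS replicate 2, the library that stood apart, the log2 fold changes were -4.70 for Sort1, -3.61 for Igf2r and -1.21 for Gga2, and all 3 passed (edgeR adjusted p = 3.50e-04, 0.0345 and 0.0157). In bulk RNA, fewer cells expressing a gene and less RNA per cell cannot be told apart.

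**Figure D1:**
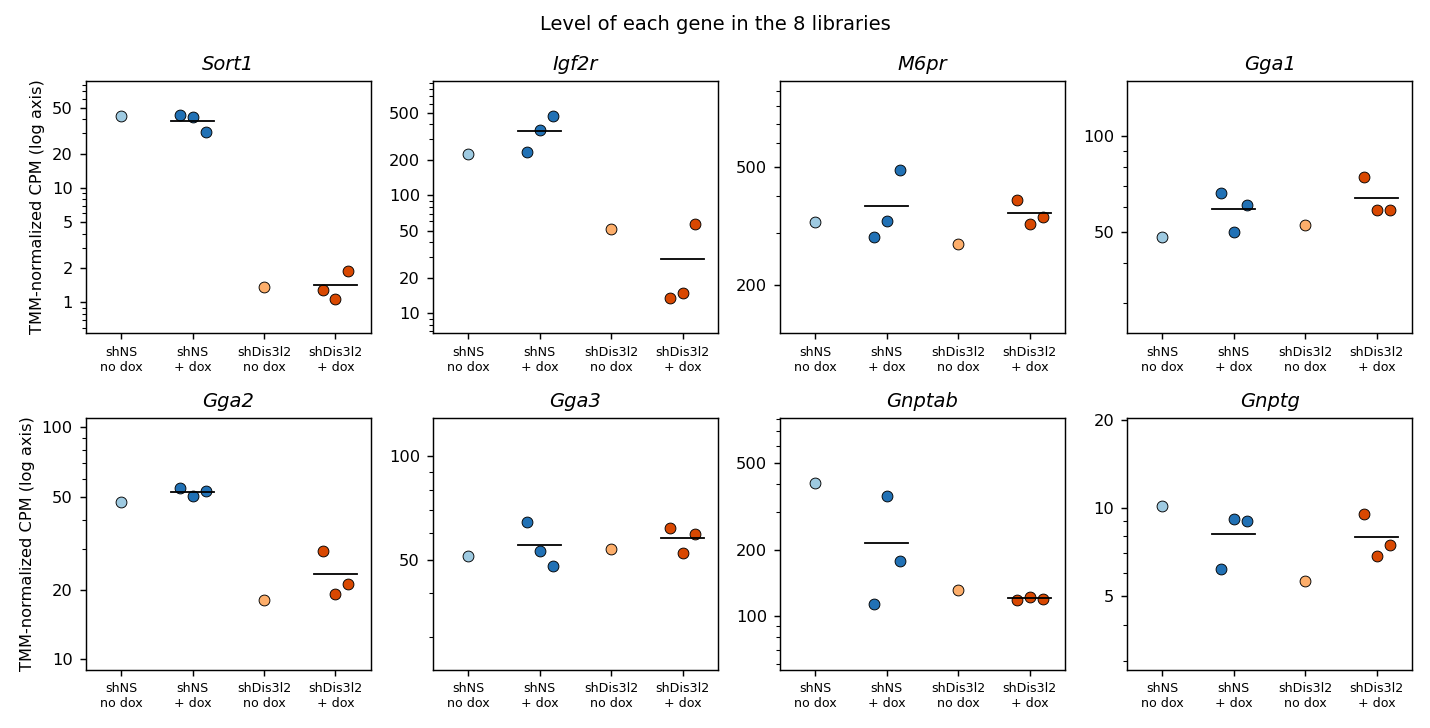
TMM-normalized CPM (log axis, a separate range for each gene) of the 8 genes in each library, with replicates 1 to 3 from left to right and the mean as a line. All shDis3l2 libraries lie below all shNS libraries for Sort1, Igf2r and Gga2, while for Gnptab replicate 2 and the untreated library of shNS stand above the others.

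Sortilin showed the largest difference of the 8. Sort1 (ENSMUSG00000068747, chromosome 3, 108284082 to 108361511, plus strand, GRCm38) was at 43.0, 42.0 and 30.8 CPM in the shNS libraries with doxycycline and at 1.28, 1.08 and 1.89 CPM in shDis3l2. Every shNS library was therefore far above every shDis3l2 library. The means were 38.6 ± 6.77 and 1.42 ± 0.423 CPM (SD, n = 3 in each group), so shDis3l2 held 3.67% of the shNS level. In counts, shDis3l2 libraries still held 56, 37 and 64 reads of Sort1, against 1071 to 1435 in shNS. The log2 fold change, -4.77 with an SE of 0.27, had an edgeR adjusted p = 4.86e-04, and in each of the 6 fits lacking 1 library it was called again, between -5.01 and -4.59. The gap was of the same order without doxycycline, with 42.7 CPM (shNS) against 1.37 CPM (shDis3l2), a log2 ratio of -4.96 (95% counting interval -5.38 to -4.57, 1 library each). Sort1 was thus low in an shDis3l2 library whose Dis3l2 level was 28.6 CPM.

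Within the Sort1 gene lies Gm43099, an unclassified transcript on the same strand that shares no exon base with it. Its counts were 35, 38 and 13 in shNS with doxycycline and 1, 6 and 7 in shDis3l2, with 35 and 4 without doxycycline. These few reads were low in the same libraries as Sort1 (adjusted p = 0.0806 by edgeR; the gene was named with its values in view). The annotated antisense gene Gm12523, which overlaps Sort1 exons by 338 bases, had 0 counts in the 8 libraries.

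Igf2r, the large receptor that binds both mannose-6-phosphate and insulin-like growth factor 2 (ENSMUSG00000023830, chromosome 17, 12682406 to 12769664, minus strand), was at 233, 357 and 467 CPM in shNS with doxycycline. In shDis3l2 it was at 13.6, 14.7 and 57.5 CPM. The groups did not overlap, but replicate 3 of shDis3l2 stood well above its 2 companions and close to the 51.7 CPM of shDis3l2 without doxycycline. The means were 353 ± 117 and 28.6 ± 25.1 CPM (SD, n = 3), a level in shDis3l2 of 8.11% of that in shNS. The log2 fold change of Igf2r, -3.62 with an SE of 0.68, passed (edgeR adjusted p = 0.0338). Leaving out shNS replicate 1 or 3, or shDis3l2 replicate 1 or 2, ended the call (edgeR adjusted p from 0.0519 to 0.134), as did dropping the low-count filter (0.105), and without shDis3l2 replicate 3 the value was -4.61 (adjusted p = 0.00449). Without doxycycline shNS was at 223 CPM, and the log2 ratio was -2.11 (95% counting interval -2.18 to -2.04).

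Airn, the antisense RNA across the Igf2r promoter, was much scarcer. It had 114, 45 and 112 counts in shNS with doxycycline and 6, 2 and 28 in shDis3l2, with 79 and 35 counts in the untreated libraries. Within shDis3l2 the libraries with more Igf2r, replicate 3 and the untreated one, also held more Airn. Within shNS this was not seen. There replicate 1 with doxycycline held the most Airn (3.59 CPM) but less Igf2r than replicates 2 and 3, and replicate 2 held the least Airn (1.32 CPM). Airn did not pass the test (log2 fold change -3.00, edgeR adjusted p = 0.109). The annotation gives Airn no exon base shared with Igf2r, and whether counting used the strand is not given in the sources used here.

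M6pr, the smaller receptor (ENSMUSG00000007458, chromosome 6, 122308720 to 122317680, plus strand), gave overlapping groups. It stood at 291, 329 and 487 CPM in shNS with doxycycline and at 387, 322 and 338 CPM in shDis3l2. Its log2 fold change of -0.08, with an SE of 0.21, did not pass (edgeR adjusted p = 0.887). In the untreated libraries it was at 326 CPM in shNS and 276 CPM in shDis3l2. This gene therefore differed by less than the spread between replicates.

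**Figure D2:**
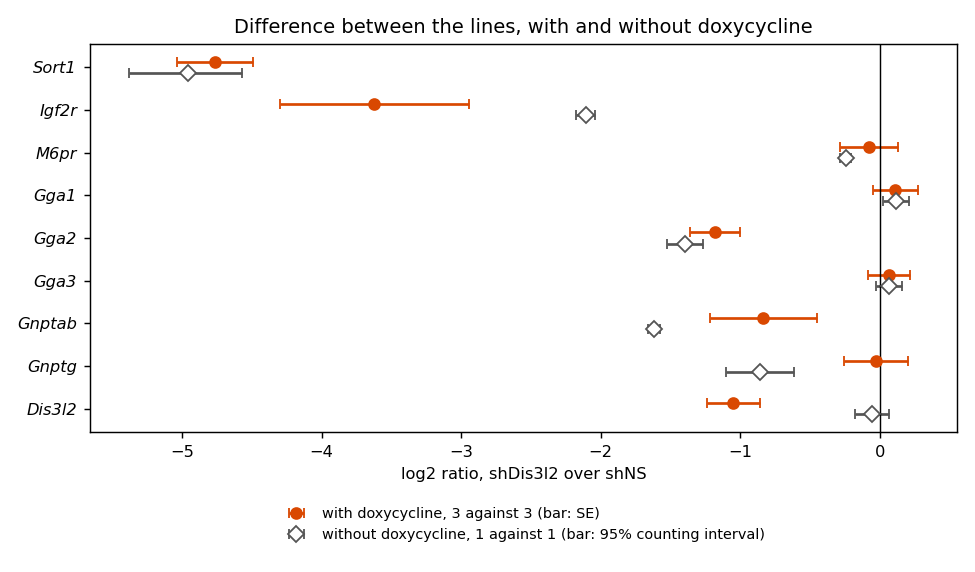
log2 ratio of shDis3l2 over shNS for the 8 genes and Dis3l2, with doxycycline (circles, 3 libraries against 3, bars are the SE) and without it (diamonds, 1 against 1, bars are 95% counting intervals). Sort1, Igf2r and Gga2 lie below 0 in both conditions, and so do Gnptab, M6pr and Gnptg. With doxycycline these last are at -0.83, -0.08 and -0.03 and did not pass the test, and without it at -1.62, -0.24 and -0.85. Dis3l2 is at -1.05 with doxycycline and -0.05 without.

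The make-up of the receptor RNA differed between the lines. Dividing CPM by the exon length in kilobases (RPKM) allows the genes to be compared per length. On the RPKM scale M6pr was highest in shNS with doxycycline (88.5 ± 24.9, SD, n = 3), Igf2r followed at 37.9 ± 12.6 and Sort1 was lowest at 5.10 ± 0.895. M6pr took 64.2 to 69.4% of the summed RPKM of the 3 receptors in those libraries, Igf2r 24.9 to 31.2% and Sort1 2.38 to 5.65%. In shDis3l2 with doxycycline M6pr took 92.7 to 98.3%, Igf2r 1.54 to 7.07% and Sort1 0.179 to 0.286%. The untreated libraries lay with their lines, with M6pr at 72.6% in shNS and 92.0% in shDis3l2. The sum itself was 100.6, 123 and 171 RPKM in shNS with doxycycline and 94.5, 78.9 and 87.5 RPKM in shDis3l2. With union exon length all 3 shDis3l2 sums were thus under the lowest shNS sum. With the longest transcript as length, M6pr in shNS was at 124.0 RPKM, Igf2r at 39.7 and Sort1 at 5.65. The shares and the separation of the sums therefore rest on the length used, and the separation need not hold with the longest transcript.

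Among the GGA adaptors, which bridge the receptor tails to clathrin, Gga2 passed the test and Gga1 and Gga3 did not. Whether the change of Gga2 differed from that of the other 2 was not tested. Gga2 (ENSMUSG00000030872, chromosome 7, 121986722 to 122021222, minus strand) was at 54.9, 50.3 and 53.1 CPM in shNS with doxycycline and at 29.4, 19.2 and 21.1 CPM in shDis3l2. The shNS values were tightly grouped and all above the shDis3l2 values, with means of 52.8 ± 2.29 and 23.2 ± 5.38 CPM (SD, n = 3). Gga2 gave a log2 fold change of -1.18 with an SE of 0.18 (edgeR adjusted p = 0.0125), and the call was lost without shDis3l2 replicate 2 (adjusted p = 0.0626) or 3 (0.0641). The untreated libraries held 47.5 CPM (shNS) and 18.1 CPM (shDis3l2), a log2 ratio of -1.39 (95% counting interval -1.52 to -1.27).

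Gga1 (ENSMUSG00000033128, chromosome 15, 78877190 to 78894585) was at 66.5, 49.99 and 60.8 CPM in shNS with doxycycline and 74.3, 58.5 and 58.7 CPM in shDis3l2. Gga3 (ENSMUSG00000020740, chromosome 11, 115584255 to 115604051) was at 64.6, 53.2 and 48.1 CPM against 62.1, 52.3 and 59.3 CPM. Both sets of groups overlapped, with log2 fold changes of 0.11 (SE 0.16) for Gga1 and 0.07 (SE 0.15) for Gga3. Some Gga3 exon sequence, 127 bases, is shared with Mrps7 on the opposite strand, which held 10200 counts in the 8 libraries against 16031 for Gga3. Per length Gga1 was the most abundant adaptor in every library, and the share of Gga2 in the summed GGA RPKM was 16.7 to 19.1% in shNS with doxycycline and 7.61 to 9.19% in shDis3l2. Without doxycycline the share of Gga2 was 18.8 and 7.58%. These shares use union exon length, which for Gga2 is 9769 bases against 4915 in its longest transcript. With the longest transcript as length Gga2 in shNS with doxycycline was at 10.7 rather than 5.40 RPKM, so its shares would be larger.

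**Figure D3:**
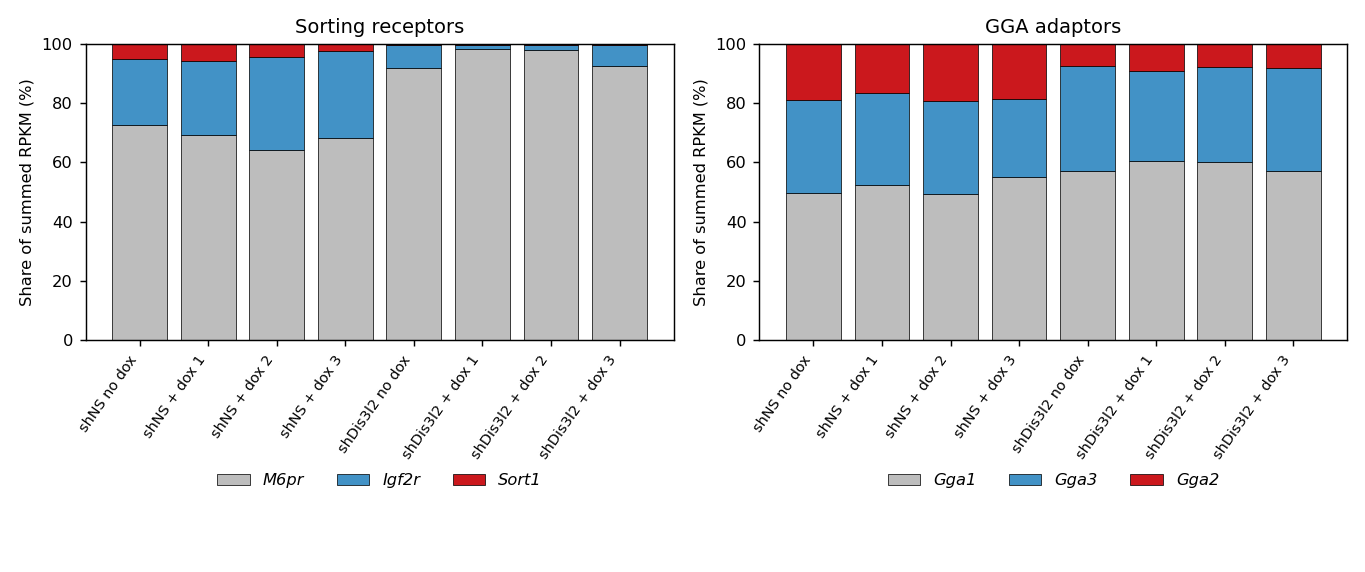
Share of the summed RPKM (percent, by union exon length) taken by each sorting receptor (left) and each GGA adaptor (right) in the 8 libraries. In shDis3l2 libraries M6pr takes at least 92.0% of the receptor sum and Gga2 at most 9.19% of the adaptor sum.

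Neither subunit gene of the phosphotransferase that starts the tag passed the test. Gnptab encodes the catalytic alpha and beta subunits (ENSMUSG00000035311, chromosome 10, 88379132 to 88447329, plus strand). It was even in shDis3l2, at 119, 123 and 120 CPM with doxycycline and 132 CPM without, but uneven in shNS, at 114, 353 and 179 CPM with doxycycline and 404 CPM without. The 2 high shNS values belong to replicate 2 and the untreated library, the pair that resembled each other across genes. Its log2 fold change of -0.83, with an SE of 0.38, did not pass (edgeR adjusted p = 0.281), and it was -0.28 without shNS replicate 2. In the untreated libraries the log2 ratio was -1.62 (95% counting interval -1.66 to -1.57).

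Gnptg, which encodes the gamma subunit that helps recognise substrates (ENSMUSG00000035521, chromosome 17, 25233331 to 25240124, minus strand), was the lowest of the 8 genes in shNS per length, at 3.61 ± 0.741 RPKM with doxycycline. It stood at 6.20, 9.16 and 9.01 CPM in shNS and 9.51, 6.89 and 7.48 CPM in shDis3l2 with doxycycline. The groups overlapped (a log2 fold change of -0.03 with an SE of 0.23; adjusted p = 0.969 by edgeR). Gnptg and Unkl, a gene on the opposite strand, share 1113 exon bases, and Unkl held 2824 counts against 2319 for Gnptg, so the split of reads between them is uncertain. The RPKM ratio of Gnptab to Gnptg was 7.0, 14.7 and 7.59 in shNS with doxycycline and 4.78, 6.81 and 6.13 in shDis3l2.

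In order of RPKM, the levels in shNS with doxycycline ran M6pr, Igf2r, Gnptab (36.5 ± 21.0), Gga1 (15.7 ± 2.23), Gga3 (8.86 ± 1.36), Gga2 (5.40 ± 0.234), Sort1 and Gnptg. Among neighbours in this order the ranges of the 3 libraries overlapped for Igf2r and Gnptab, for Gga2 and Sort1, and barely for Sort1 and Gnptg. With the length of the longest transcript in place of all exons, Gga2 was at 10.7 RPKM, next to Gga3 at 11.4, and Gnptab (39.9) stood just above Igf2r (39.7). In shDis3l2 the order was M6pr (83.7 ± 8.14), Gnptab (20.5 ± 0.334), Gga1 (17.0 ± 2.41), Gga3 (9.27 ± 0.807), Gnptg (3.54 ± 0.612), Igf2r (3.07 ± 2.69), Gga2 (2.38 ± 0.551) and Sort1 (0.187 ± 0.0558). There the range of Igf2r overlapped those of both Gnptg and Gga2.

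No member passed the test for an effect of doxycycline with all libraries in the fit. The fit used all 8 libraries and 15250 genes, and each lone untreated library was assumed to vary like the others. By edgeR 0 genes were called in shNS (0.0%; 646 at an unadjusted p under 0.05, and 74 by DESeq2), 0 in shDis3l2 (0.0%; 504 and 61) and 0 for the difference between these effects (0.0%; 577 and 37). The log2 difference of Sort1, with doxycycline minus without, was -0.15 (SE 0.32) in shNS and 0.04 (SE 0.36) in shDis3l2. Igf2r gave 0.66 (SE 0.91) and -0.85 (SE 0.84), with a difference of -1.52 (SE 1.25) between the lines. Without shDis3l2 replicate 3 the value of Igf2r in shDis3l2 was -1.87 and the difference -2.53, and neither passed. For Gga2 the values were 0.15 (SE 0.25) and 0.36 (SE 0.26). Dis3l2 itself gave -1.09 in shDis3l2 and was not called either. Gnptab gave -0.91 (SE 0.52) in shNS, and without shNS replicate 2 it was -1.49 and passed (edgeR adjusted p = 0.0297).

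The other genes of the route were read from 5 lists totalling 93 genes, of which 85 were tested. The lists were written with earlier results of these data known, so the counts within them describe these libraries only. With doxycycline edgeR called 1 higher and 8 lower in shDis3l2, against 2.13% and 4.01% of all tested genes. The listed genes had a median log2 fold change of -0.32, against -0.0023 over all tested genes. The count of 9 became 2 without shDis3l2 replicate 2, 3 without replicate 3 and 16 without shNS replicate 1, and it was 12 without shNS replicate 2.

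Of 20 genes for AP-1, clathrin and ARF factors 19 were tested (median -0.04). Between the lines with doxycycline edgeR called 1 higher and 1 lower, against 2.13% and 4.01% of all tested genes. Kif13a, the kinesin known for carrying mannose-6-phosphate receptor vesicles (ENSMUSG00000021375, chromosome 13), was at 14.0, 11.7 and 11.7 CPM in shNS with doxycycline and had 0 counts in all 4 shDis3l2 libraries. With a floor of 3 counts per library it was at least 153-fold lower with doxycycline (edgeR adjusted p = 7.60e-04), and its absence was already known when the list was written. Ap1s3, a small subunit of the AP-1 adaptor, was at 35.9, 24.6 and 41.5 CPM in shNS and 76.1, 87.4 and 81.1 CPM in shDis3l2 with doxycycline. Its log2 fold change was 1.27 with an SE of 0.20 (edgeR adjusted p = 0.0149). Untreated shNS and shDis3l2 were at 30.9 and 49.5 CPM. The call of Ap1s3 was lost without any 1 of the shDis3l2 replicates (adjusted p from 0.0523 to 0.0691).

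Of 17 tested genes for retromer and endosome-to-Golgi return 0 passed by edgeR and 2, Vps29 and Vps35, were called lower by DESeq2. By edgeR 7 of the 17 lay at an unadjusted p under 0.05, against 20.8% of all tested genes. The list had 14 negative fold changes and a median of -0.29. The smallest p belonged to Vps29, a core retromer subunit, at 66.9 ± 11.8 CPM in shNS and 43.8 ± 6.88 CPM in shDis3l2 (SD, n = 3; a log2 fold change of -0.61, adjusted p = 0.0976 by edgeR and 0.0428 by DESeq2). Among 6 other receptor and tag genes 3 were tested and 0 passed by edgeR (0 at an unadjusted p under 0.05) or by DESeq2. Scarb2, the receptor that carries glucocerebrosidase without the tag, was at 110.3 ± 19.1 and 87.9 ± 10.2 CPM (a log2 fold change of -0.32, adjusted p = 0.337 by edgeR). Sorcs1, Sorcs2 and Sorcs3, relatives of sortilin, were too low to test.

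Of 41 tagged hydrolases 40 were tested, and edgeR called 6 lower and 0 higher, against 4.01% and 2.13% of all tested genes. DESeq2, which called 1790 genes in all, called 16 lower and 1 higher. An unadjusted p under 0.05 by edgeR was found for 24 of the 40, against 20.8% of all tested genes. A negative fold change was seen in 33, and the median was -0.50. Tpp1, a peptidase, was at 218, 272 and 240 CPM in shNS and 122, 103 and 107 CPM in shDis3l2 (a log2 fold change of -1.13 with an SE of 0.14; adjusted p = 0.00715 by edgeR). Galc, which breaks down galactosylceramide, was lower by 1.94 and Naglu, an enzyme of heparan sulfate breakdown, by 0.97 in log2 units (adjusted p = 0.00961 and 0.0201 by edgeR). Gla, Ctsb and Ctsd were the other 3. Without doxycycline all 6 were also lower in shDis3l2, in 1 library of each line. In untreated shNS and shDis3l2 Tpp1 was at 256 and 128 CPM, Galc at 81.3 and 15.9, and Naglu at 58.4 and 30.05. Gla was at 65.05 and 9.23 CPM, Ctsb at 2436 and 725, and Ctsd at 3422 and 376.5. The untreated shNS library is the one that resembled shNS replicate 2 across genes. Among the shNS libraries Tpp1, Galc, Gla and Ctsd were highest in that pair, and Naglu and Ctsb were not. With doxycycline Galc was at 54.2, 88.95 and 54.0 CPM in shNS and Ctsd at 1093, 3961 and 2258 CPM. The untreated gap of such genes thus depends on which shNS library is used. Without shDis3l2 replicate 2 the calls of Tpp1, Galc, Naglu, Ctsb and Ctsd were lost, and without replicate 3 those of Gla, Naglu, Ctsb and Ctsd (edgeR adjusted p from 0.0501 to 0.195). Ctsd also lost its call without shDis3l2 replicate 1 (adjusted p = 0.0902) or shNS replicate 3 (0.0864), without the low-count filter (0.0844) and with all 8 libraries in the fit (0.0551), and with the replicate number as a block the calls of Naglu (0.0594), Ctsb (0.0807) and Ctsd (0.137) were lost.

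Of 12 sortilin ligands 9 were tested, and edgeR called 2 lower and 0 higher, against 4.01% and 2.13% of all tested genes. DESeq2 called 4 lower and 0 higher. An unadjusted p under 0.05 by edgeR was found for 6 of the 9, against 20.8% of all tested genes, and the median was -1.07. Psap, the precursor of the saposins, was at 977, 1044 and 1727 CPM in shNS with doxycycline and 467, 504 and 512 CPM in shDis3l2 (a log2 fold change of -1.33 with an SE of 0.24; adjusted p = 0.0209 by edgeR). In untreated cells the gap in Psap was smaller, at 619 and 516 CPM. The call of Psap was lost without any 1 of the shDis3l2 replicates (adjusted p from 0.0853 to 0.103). Ctsd, the other ligand called lower, was at 2437 ± 1442 CPM in shNS and 513 ± 165 CPM in shDis3l2 (SD, n = 3, edgeR adjusted p = 0.0463).

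**Figure D4:**
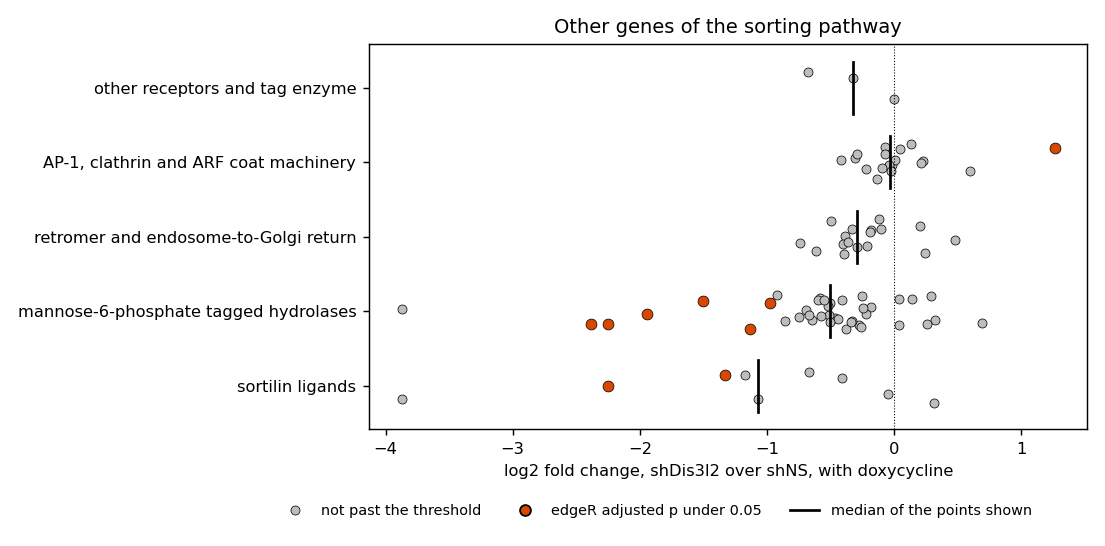
log2 fold change of shDis3l2 over shNS with doxycycline for the tested genes of the 5 lists, with genes past an edgeR adjusted p of 0.05 in orange and the median of the points drawn in each list as a bar. Kif13a, with 0 counts in shDis3l2, is not drawn and does not enter the bar, and 33 of 40 hydrolases lie left of 0. With Kif13a included the median of the coat machinery is -0.04.

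Genes whose pattern over the 8 libraries was most like each receptor were ranked by Pearson's r of log2(CPM + 1) among 8865 genes with a mean of at least 10 CPM. For Sort1 these were the antisense RNA Gm16316 (r = 0.996), Ostm1, the partner subunit of a lysosomal chloride transporter (0.993), and Kndc1 (0.992). Gm16316 was at 103.6, 66.1 and 44.5 CPM in shNS with doxycycline and 0.0229, 0.0876 and 0.0 CPM in shDis3l2. Ostm1 was at 53.4, 59.6 and 52.0 CPM in shNS with doxycycline and 31.5, 32.0 and 34.2 CPM in shDis3l2. Kndc1 was at 155.5, 75.3 and 99.96 CPM in shNS with doxycycline and 0.0457, 0.0292 and 0.0 CPM in shDis3l2. For Igf2r they were Clcn5, an endosomal chloride and proton exchanger (0.979), Hadh, an enzyme of fatty acid oxidation (0.965), and Ankrd50, an endosomal sorting protein (0.965). For M6pr they were the zinc transporter Slc39a1 (0.976), Pgrmc1 (0.960) and Morf4l2 (0.959). The 8 points of each r share their line and library, so these values describe likeness only.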

How the data were processed

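Per the submitters' processing notes, cutadapt, STAR 2.7 and RSEM were used with GRCm38 and mm10. Not given in the sources used here: other versions, the annotation release and the strand setting. The libraries came from a stranded kit that depletes ribosomal RNA, per the labels' protocols. The authors deposited unnormalized RSEM expected counts for 55450 genes. Reads shared by several genes are apportioned by RSEM, so values of overlapping genes are estimates. All identifiers matched GENCODE M21. Columns were assigned to samples by their names.

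Counts were rounded, which altered 4.68 to 5.24% of values in a library. Levels are CPM scaled by TMM over 8 libraries, and RPKM divides these by union exon length. Tests were two-sided edgeR 4.0.16 quasi-likelihood tests (R 4.3.3, robust) with filterByExpr at a minimum count of 10, TMM and Benjamini-Hochberg adjustment over all genes, threshold 0.05. The SE is the log2 fold change divided by the square root of F. DESeq2 1.42.0, other scalings, no filter, all 8 libraries, the replicate block and leaving out each library were alternatives. Intervals are exact, at 95%, and cover counting error only. The script was tested on simulated data. No 2 replicates agreed within counting noise.

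Members and lists were chosen with earlier results of these data known. Named are the members, Dis3l2, up to 4 called genes of each list by adjusted p (or 1 where none was called) and the 3 genes most like each receptor. Ctsb, genes overlapping a member and single macrophage markers were named after their values were seen.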

Additional observations from a re-analysis of the deposited data

Results flagged for a closer look

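The Gnptg libraries with doxycycline lay on opposite sides of the untreated library in the 2 lines. In shNS all 3 treated libraries (6.20, 9.16 and 9.01 CPM) lay below the untreated one (10.2 CPM), and in shDis3l2 all 3 (9.51, 6.89 and 7.48 CPM) lay above it (5.62 CPM). The fitted effects were -0.32 (SE 0.32) in shNS and 0.50 (SE 0.34) in shDis3l2, and neither passed edgeR's test. The fitted difference between the effects was 0.82 on the log2 scale (SE 0.46) and did not pass either (adjusted p = 1.0). Each effect rests on 1 untreated library.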

How the results depend on the processing

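With doxycycline the 845 calls between the lines became 1790 with DESeq2, 421 with the replicate block and 203 to 1157 when a library was left out, with 464, 203 and 259 without shDis3l2 replicate 1, 2 or 3. Same-numbered replicates did not deviate together (correlations of -0.118, 0.0198 and -0.0199), so the numbers were not taken to pair samples. The block kept the calls of Sort1, Igf2r and Gga2 and ended that of Dis3l2 (edgeR adjusted p = 0.0822), which was also lost without shDis3l2 replicate 1, 2 or 3 (0.0814, 0.112 and 0.0777). Without the low-count filter Igf2r lost its call (adjusted p = 0.105). The 9 calls in the pathway lists became 24 with DESeq2 and 2 to 16 when a library was left out. For doxycycline, the 0 calls in shNS became 2 without the filter, 74 with DESeq2 and 0 to 544 when a library was left out. The 0 in shDis3l2 became 61 with DESeq2, and the 0 for their difference became 2, 37 and 0 to 121. The large counts, 544 and 121, came without shNS replicate 2.

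Direction turned only for values near 0 among the members and Dis3l2. Between the lines Gnptg turned to 0.0291 with library size alone and 0.0024 without the filter, and ranged from -0.17 to 0.0817 when a library was left out, M6pr from -0.20 to 0.17, Gga1 from -0.0078 to 0.23 and Gga3 from -0.0297 to 0.22. For the doxycycline effect in shNS M6pr ranged from -0.0847 to 0.32, Gga3 from -0.0159 to 0.19 and Dis3l2 from -0.23 to 0.0443, and in shDis3l2 Sort1 from -0.21 to 0.20. For the difference of these effects, Gga1 turned to 0.0136 and Gga3 to 0.0189 without the filter and Gga3 to 0.0023 with DESeq2, while Sort1 ranged from -0.0696 to 0.35, Gga1 from -0.11 to 0.0859 and Gga3 from -0.084 to 0.12. The causes were not tested. By library size alone the untreated log2 ratio was -0.18 for M6pr and -1.56 for Gnptab. With the longest transcript as length, levels in shNS were 124.0 (M6pr), 19.5 (Gga1), 10.7 (Gga2) and 11.4 RPKM (Gga3). With 37 to 64 counts, Sort1 in shDis3l2 is limited by depth.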

Other observations

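The genes around Sort1, Igf2r and Gga2 were listed to place their values in the genome. Within 250 kb of Sort1 17 other genes were tested and 0 were called by edgeR; apart from Gm43099 inside the gene, their log2 fold changes ran from -0.51 (Psrc1) to 0.98 (Amigo1). Psma5, the next gene upstream, was at 78.8 CPM in shNS and 93.4 CPM in shDis3l2 with doxycycline. Within 250 kb of Igf2r 6 other genes were tested and 0 were called. Apart from Airn they ran from -0.48 (Sod2) to 0.05 (Mrpl18), with Tcp1 at 362 and 345 CPM. Within 250 kb of Gga2 8 genes were tested and 0 were called, from -0.31 (Dctn5) to 0.62 (Plk1). These neighbours were chosen by position after the members' values were seen.

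The F4/80 gene Adgre1, one of the macrophage markers, was at 121, 63.1 and 99.2 CPM in shNS with doxycycline and 10.7, 7.09 and 25.9 CPM in shDis3l2. Csf1r, the receptor for macrophage colony-stimulating factor, lay the other way, at 1297, 1494 and 1844 CPM in shNS and 2236, 2230 and 2168 CPM in shDis3l2. Among the 12 markers, Mpeg1 and Aif1 also lay lower in shDis3l2 without overlap of the groups, and Itgam lay higher. For the other markers the groups overlapped. Over all tested genes 14.6% lay lower and 13.2% higher without overlap. These markers were named after their values were seen.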
